A study of Oryctolagus cuniculus with 8 samples.

Results

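The S100 genes described here were the rows of the expression table named S100B, or S100A followed by a number. There were 12 such genes among 25666 rows, and 7 of them reached 1 FPKM or more in at least 2 libraries. FPKM is the number of sequenced fragments on a gene, scaled for the length of the gene and the depth of the library, so that levels of different genes can be set side by side. S100A1 and S100A13 are described before the others because they had been picked from the comparison of retinas on a high-sucrose diet (HSD) with retinas on a normal diet (ND). Their values in that comparison, and in each comparison that shares its retinas, are therefore given as a description with no test.

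RNA was sequenced from 8 retinas of wild-type male Chinchilla rabbits, 2 from each of 4 diets. Feeding began at 12 to 16 weeks of age and lasted 6 months, so that the animals were about 10 months old at the end. The ND group received standard rabbit chow, and this chow was the base of every other diet. The high-fat diet (HFD) contained 10% lard and 0.5% cholesterol, the HSD contained 40% sucrose, and the high-fat plus high-sucrose diet (HFSD) had 35% sucrose beside lard (10%) and cholesterol (0.5%). The sucrose content of the HSD and the HFSD was thus not the same. The labels do not say whether the 2 retinas of a diet came from separate rabbits, so p-values measure only the spread between these retinas. In whole tissue, fewer cells of a type and less RNA per cell cannot be told apart.

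S100 proteins are small proteins with a pair of EF-hand loops, the helix-loop-helix folds that hold a calcium ion, and most are calcium sensors. They work mostly as dimers, and most of these open a binding face when calcium enters the cell and then attach to a target protein. S100B is a classic marker of glia and is made in the retina by astrocytes and Müller cells, the radial glia that span the neural retina. S100A1 is best known from striated muscle, where it binds the calcium release channel and the calcium pump of the sarcoplasmic reticulum. S100A13 takes part in the export of fibroblast growth factor 1 and interleukin 1 alpha, which lack a signal peptide. S100A10 holds annexin A2 in a complex at the membrane, S100A6 binds the ubiquitin ligase adaptor CACYBP, S100A4 binds the heavy chain of non-muscle myosin (MYH9) and S100A11 binds annexin A1. S100A8 and S100A9 together form calprotectin, which fills the cytoplasm of neutrophils.

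Fragments recovered from the FPKM steps summed to between 15223693 and 22293660 per library, and 1 fragment on a gene of 1 kb was worth between 0.0439 and 0.0634 FPKM. Rod markers were at a summed 28580 to 40440 FPKM in every library. HSD replicate 2 stood apart, since the striated muscle markers in the table (9 of 12 listed) summed to 517 FPKM there and to between 1.88 and 3.97 FPKM elsewhere. The log2 differences of single S100 genes stated for HSD against ND, and those averaged over both sucrose comparisons, are also given without it.

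S100A1 was the S100 gene with the highest level after S100B in the retinas without sucrose. In the ND retinas its level was 122 and 212 FPKM, and in the HFD retinas it was 184 and 144 FPKM. In the HSD retinas it was 27.9 and 26.3 FPKM, and in the HFSD retinas it was 34.5 and 45.3 FPKM. Every retina on a sucrose diet was below every retina on a diet without sucrose, and the HFD retinas lay within the range of the ND retinas. The lowest level without sucrose was 2.69 times the highest level with it. HSD retinas below ND retinas were found for 19.7% of the 12204 protein-coding genes tested. A full separation of the 4 sucrose retinas below the other 4 was found for 6.48%, and since HSD against ND picked this gene, nothing is read from the separation here.

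The mean level of S100A1 was 167±63.8 FPKM on ND, 164±28.0 on HFD, 27.1±1.12 on HSD and 39.9±7.58 on HFSD (mean±s.d., n=2 retinas each). Means in HSD and HFSD were thus 6.16 and 4.18 times lower than in ND retinas. On the log2(FPKM + 1) scale HFD differed from ND by 0.02, HSD by -2.52 and HFSD by -1.995. The difference in HFD was -0.38 without ND replicate 1, -0.16 without HFD replicate 1 and 0.42 without ND replicate 2. The 3 comparisons share the ND retinas, and the level in the ND retinas differed 1.74-fold. Between 157 and 1340 fragments stood behind the values of S100A1. The 2 HSD retinas differed 1.06-fold, and without HSD replicate 2, the library with muscle RNA, the log2 difference between HSD and ND was -2.48. Muscle is rich in S100A1, and its part in this level was not tested.

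S100A13 was a lower gene than S100A1 with a similar separation by sucrose. Its level was 28.4 and 38.7 FPKM on ND, 25.5 and 19.2 FPKM on HFD, 2.70 and 3.84 FPKM on HSD, and 6.64 and 6.74 FPKM on HFSD. The retinas of the 4 diets occupied separate ranges, with ND highest, then HFD, HFSD and HSD. The lowest level without sucrose was 2.84 times the highest level with it. Full separation of the 4 sucrose retinas below the other 4 was found for 6.48% of the genes tested. How many genes have all 4 diets apart in this order was not counted. HSD against ND picked S100A13, so nothing is read from its separations here. The HFD retinas were both below the ND retinas, a separation found for 13.3% of the genes tested.

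The mean level of S100A13 was 33.6±7.30 FPKM on ND, 22.3±4.44 on HFD, 3.27±0.805 on HSD and 6.69±0.072 on HFSD (mean±s.d., n=2). Compared with ND retinas the mean was 10.3 times lower on HSD and 5.02 times lower on HFSD. On the log2(FPKM + 1) scale HFD differed from ND by -0.56, HSD by -3.01 and HFSD by -2.15, and this scale understates the change of a gene with a low level in 1 group. Without HSD replicate 2 the difference in HSD was -3.21, and the difference in HFD was -0.35 without ND replicate 2 and -0.78 without ND replicate 1. The HSD values rest on 18 and 28 fragments. The exact Poisson 95% interval, which covers counting error only because PCR copies were not marked, was 1.60 to 4.27 FPKM for HSD replicate 1 and 2.55 to 5.55 FPKM for HSD replicate 2.

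**Figure D1:**
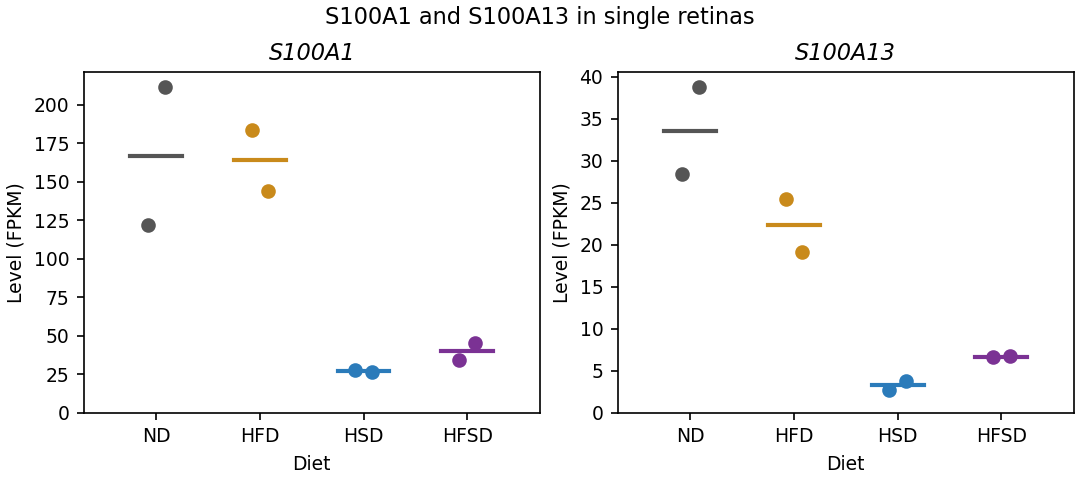
Level of S100A1 (left) and S100A13 (right) in FPKM, on a linear axis from 0, in each of 2 retinas per diet (points) with the diet mean (line). S100A1 was between 26.3 and 45.3 FPKM in the 4 sucrose retinas and between 122 and 212 FPKM in the other 4, and S100A13 was between 2.70 and 6.74 FPKM and between 19.2 and 38.7 FPKM.

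HFSD against HFD asks about sucrose added to a chow that already held lard and cholesterol, and its 4 retinas are not those of HSD and ND. It is therefore the comparison in which S100A1 and S100A13 were tested, although the estimate of the spread was shared over all 8 retinas. The S100 genes were also chosen with earlier results of these data known, so this test is not fully independent of the choice. S100A1 averaged 4.11 times lower in HFSD than in HFD retinas, a log2 difference of -2.01 (standard error 0.264, 95% interval -2.63 to -1.40). The adjusted p was 0.0877 in limma with Benjamini-Hochberg adjustment over the 12204 genes. S100A13 averaged 3.33 times lower, a log2 difference of -1.59 (standard error 0.211, 95% interval -2.08 to -1.09), with an adjusted p of 0.0880 in limma. Neither passed the limit of 0.05, and both HFSD retinas were below both HFD retinas for each gene, as for 24.7% of the genes tested. In this comparison 0.00819% of the genes tested passed, which was 1 gene.

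The call for S100A1 turned on single libraries outside the pair of diets. Its adjusted p in limma was 0.0307 without ND replicate 1, 0.0309 without ND replicate 2 and 0.0456 with only the HFD and HFSD retinas in the fit, and it ran from 0.0456 to 0.216 over the 9 other settings and from 0.0307 to 0.365 with 1 retina left out. For S100A13 the adjusted p in limma ran from 0.0724 to 0.216 over the same settings and from 0.0708 to 0.390 with 1 retina left out. The log2 difference of S100A1 stayed between -2.20 and -1.82, and that of S100A13 between -1.78 and -1.39, whichever retina was left out.

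HFSD against HSD asks about fat added to a sucrose diet, and since it shares the HSD retinas with the comparison that picked both genes, its values are a description. Both HFSD retinas were above both HSD retinas for S100A1, with means 1.47-fold apart, and for S100A13, with means 2.05-fold apart. Without HSD replicate 2 the means were 1.43-fold and 2.48-fold apart. A separation in this direction was found for 18.5% of the genes tested. For S100A13 this was opposite to the lower level in HFD than in ND, and such opposite separations were found for 4.92% of the genes. Averaged over both fat comparisons, the log2 difference was 0.27 for S100A1, from 0.08 without ND replicate 1 to 0.47 without ND replicate 2. For S100A13 the average of its opposite differences was 0.15, from 0.04 without ND replicate 1 to 0.26 without ND replicate 2, and it was 0.05 without HFD replicate 1 or HSD replicate 1.

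The ratio of S100A1 to S100A13, each in FPKM, was 4.29 and 5.47 on ND, 7.22 and 7.52 on HFD, 10.3 and 6.86 on HSD, and 5.20 and 6.71 on HFSD. The ratios overlapped between diets with and without sucrose, with the highest in the HSD retina that had 18 fragments of S100A13. S100A1 and S100A13 lie next to each other in the rabbit genome, in the RefSeq annotation of the assembly mOryCun1.1, and their spans overlap by 21 bases there. Whether the libraries or the counting kept the strand is not given in the sources used here, so reads in the overlap cannot be told apart. The genome build of the files is not given in the sources used here either, and no coordinates are printed for this reason.

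Of the 22 protein-coding genes in the same stretch of that assembly, 15 were found in the table by symbol and 8 passed the filter. The other 6 besides the pair were DENND4B, GATAD2B, INTS3, ILF2, SNAPIN and S100A6. SNAPIN, a SNARE-associated protein and the nearest of these on 1 side, was at 139 and 169 FPKM on ND, 175 and 138 on HFD, 137 and 128 on HSD, and 118 and 122 on HFSD. Its log2 difference averaged over both sucrose comparisons was -0.29 (adjusted p = 0.226 in limma). The same average was 0.11 for GATAD2B, 0.03 for INTS3, 0.02 for DENND4B and -0.18 for ILF2. S100A6, on the other side, had -0.71. None of these 6 genes passed in limma.

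**Figure D2:**
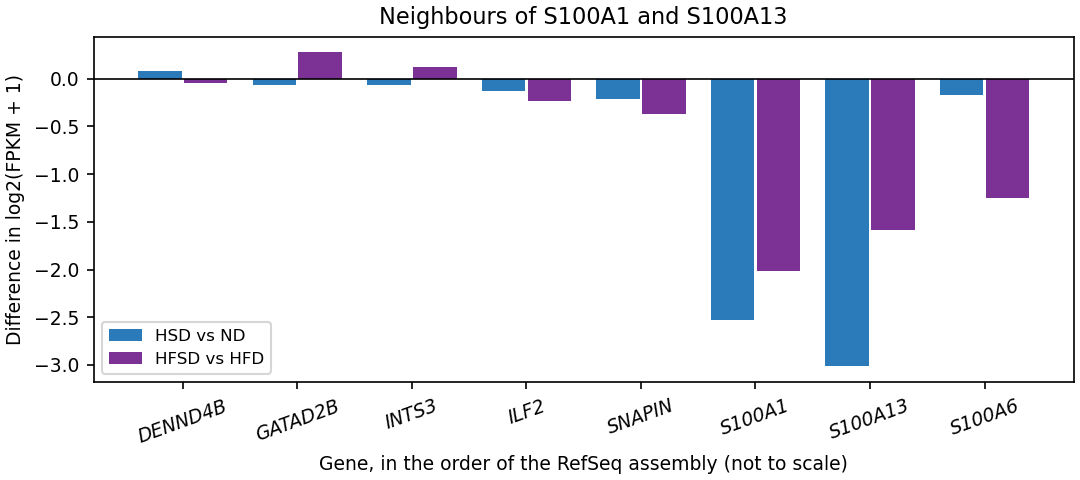
Difference in log2(FPKM + 1), HSD minus ND and HFSD minus HFD, for the 8 tested genes around S100A1 and S100A13 in the gene order of the RefSeq assembly; bars start at 0, show means of 2 against 2 retinas, and carry no error. S100A1 and S100A13 lie between -3.01 and -1.59, S100A6 has a long bar in HFSD minus HFD only (-1.25), and the other 5 genes lie between -0.37 and 0.28.

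S100B, the glial member, had the highest level of all S100 genes in every library. It was at 583 and 362 FPKM on ND, 738 and 398 on HFD, 471 and 230 on HSD, and 321 and 385 on HFSD. The retinas of a diet differed by up to 2.05-fold, and the ranges of all diets overlapped except that both HFSD retinas were below both HFD retinas. A separation of that kind was found for 24.7% of the genes tested. The log2 difference of S100B was -0.62 in HFSD against HFD (95% interval -1.60 to 0.36, adjusted p = 0.495 in limma) and -0.48 in HSD against ND (95% interval -1.46 to 0.50, adjusted p = 0.833 in limma). The former was -0.18 without HFD replicate 1 and -1.07 without HFD replicate 2, and the latter was 0.04 without HSD replicate 2 and -0.14 without ND replicate 1, so both rest on single retinas. As an average of HSD against ND and HFSD against HFD it was -0.55 (95% interval -1.24 to 0.14, adjusted p = 0.355 in limma), and from -0.81 to -0.29 with 1 retina left out.

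S100B made up 54.5% to 90.3% of the summed FPKM of the 7 genes. Without S100B, the other 6 summed to between 184 and 303 FPKM in the retinas without sucrose and to between 50.3 and 80.2 FPKM in those with sucrose. This sum includes S100A13 and S100A1, and S100A1 alone was at 122 to 212 FPKM without sucrose and 26.3 to 45.3 FPKM with it. S100A1 was 15.9% to 31.9% of the sum of all 7 without sucrose and 5.35% to 9.78% with it. Both genes were picked from HSD against ND, so nothing is read from these splits about the rest of the family.

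S100A10, the partner of annexin A2, was at 27.5 and 46.5 FPKM on ND, 21.6 and 26.8 on HFD, 16.8 and 39.8 on HSD, and 25.4 and 23.3 on HFSD. Both HFD retinas and both HFSD retinas were below the ND retinas, and the HSD retinas spanned both. Such a separation below ND was found for 13.3% of genes in HFD and 20.6% in HFSD. The log2 difference between HFSD and HFD was 0.01 (95% interval -0.89 to 0.92, adjusted p = 0.991 in limma). Against ND it was -0.55 in HFD and -0.54 in HFSD, with adjusted p of 0.998 and 0.766 in limma, and without ND replicate 2 it was -0.18 and -0.17.

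In the sucrose diets S100A10 thus stood beside S100A1 in the order of levels. In HSD the mean was 28.3±16.3 FPKM for S100A10 and 27.1±1.12 FPKM for S100A1, which overlap (n=2). Without sucrose, S100A10 and S100A13 overlapped in ND and in HFD. In HFSD the order S100B, S100A1, S100A10, S100A13 held in both retinas.

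S100A6, S100A4 and S100A11 were low genes, each at less than 5 FPKM in every retina. S100A6 was at 3.55 and 1.68 FPKM on ND, 4.47 and 2.72 on HFD, 1.10 and 3.596 on HSD, and 1.20 and 0.629 on HFSD, from 4 to 36 fragments. Both HFSD retinas were below every retina without sucrose, a separation found for 12.6% of the genes tested, while the HSD retinas overlapped with them. In HFSD against HFD its log2 difference was -1.25 (95% interval -2.26 to -0.25, adjusted p = 0.269 in limma), and it was -1.88 with a pseudocount of 0.1 and with voom.

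S100A4 was at 1.64 and 3.42 FPKM on ND, 4.89 and 2.21 on HFD, 1.39 and 2.24 on HSD, and 1.55 and 0.960 on HFSD, from 9 to 58 fragments. Both HFSD retinas were below every retina without sucrose here too, with the same share of 12.6% among the genes tested. Its log2 difference in HFSD against HFD was -0.96 (95% interval -1.83 to -0.09, adjusted p = 0.303 in limma). It was -0.52 without HFD replicate 1, -1.40 without HFD replicate 2, -1.36 with a pseudocount of 0.1 and -1.38 with voom. Averaged over both sucrose comparisons it was -0.63 for S100A4 (adjusted p = 0.265 in limma) and -0.71 for S100A6 (adjusted p = 0.272 in limma). Leaving out single retinas moved these averages between -0.85 and -0.41 for S100A4 and between -0.99 and -0.43 for S100A6.

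S100A11 had the lowest mean level of the S100 genes that passed the filter, with 1 FPKM or more in 4 libraries. It was at 1.61 and 0.355 FPKM on ND, 4.57 and 1.03 on HFD, 0.399 and 4.38 on HSD, and 0.276 and 0.797 on HFSD, from 2 to 29 fragments. The HSD retinas differed by more than 10-fold from each other, and the 3 highest libraries were ND replicate 1, HFD replicate 1 and HSD replicate 2. The summed level of the blood markers in the table (4 of 9 listed) was also highest in these libraries, at 82.4, 72.8 and 42.9 FPKM against 0.357 to 19.1 FPKM in the others, and their part in the level of S100A11 was not tested. In HFSD against HFD the log2 difference was -1.15 (95% interval -2.81 to 0.51, adjusted p = 0.460 in limma). It was -0.43 without HFD replicate 1, -1.88 without HFD replicate 2, -1.99 with a pseudocount of 0.1 and -2.14 with voom.

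S100A6, S100A4 and S100A11 overlapped with each other in level on HFD and HSD, so no order is given among them there. S100A11 was below the retinas of both others on ND, by a narrow margin, and below those of S100A4 on HFSD. S100A13 lay above all 3 genes on every diet except HSD, where it overlapped with S100A6 and S100A11.

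HSD replicate 2, the library with muscle RNA, had higher S100A10, S100A6, S100A4 and S100A11 and lower S100B than HSD replicate 1. The fibroblast and stroma markers without their highest member summed to 52.35 FPKM there and to 17.0 to 28.6 FPKM elsewhere. With that member they summed to 78.1 FPKM there and to 36.6 to 87.2 FPKM elsewhere. The part of either tissue in these S100 levels was not tested. Without HSD replicate 2, the average log2 difference for sucrose was -2.25 for S100A1 and -2.40 for S100A13. For the others it was -0.29 for S100B, -0.52 for S100A10, -0.99 for S100A6, -0.74 for S100A4 and -0.79 for S100A11. With all retinas, the average was -0.22 for S100A10 (adjusted p = 0.699 in limma) and -0.30 for S100A11 (adjusted p = 0.770 in limma).

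**Figure D3:**
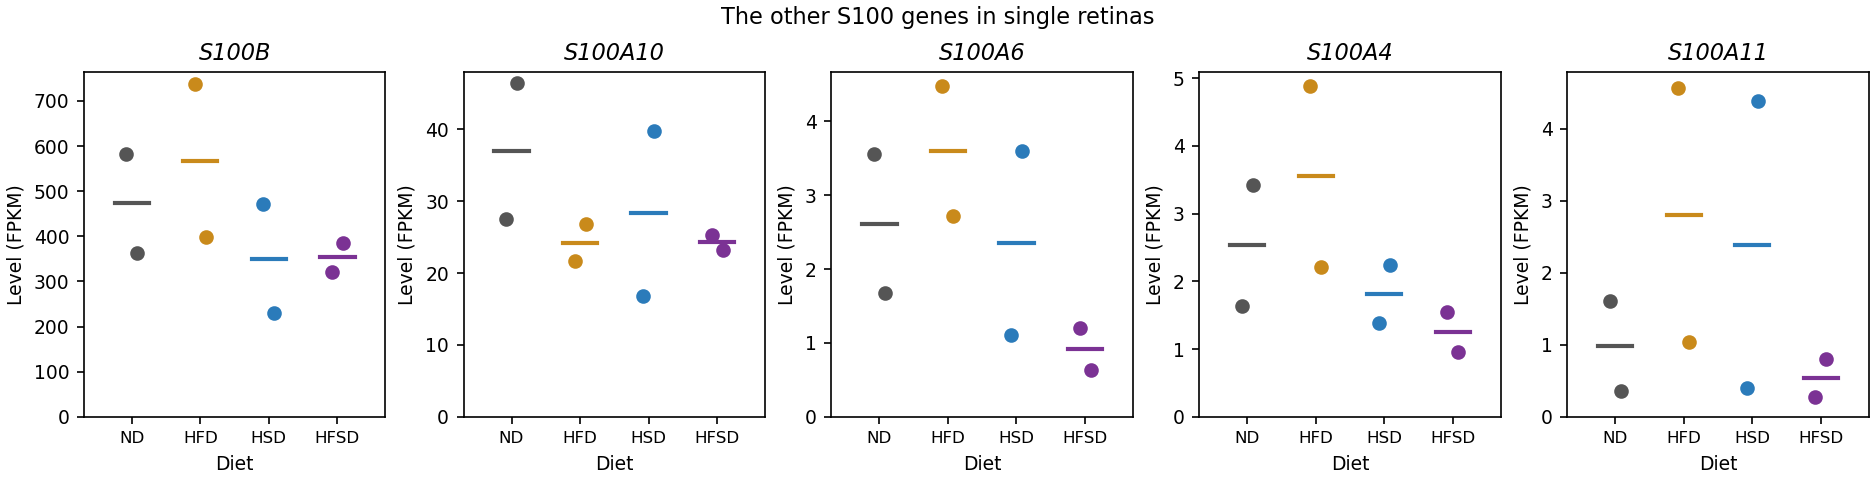
Level in FPKM, on linear axes from 0 that differ between panels, of S100B, S100A10, S100A6, S100A4 and S100A11 in each of 2 retinas per diet (points) with the diet mean (line). The retinas of 1 diet lie far apart in several panels, as for S100A11 in HSD at 0.399 and 4.38 FPKM, and the HFSD points of S100A6 and S100A4 lie below all ND and HFD points.

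Among the S100 genes tested in each comparison, none passed in limma at an adjusted p under 0.05. These were all 7 genes in HFSD against HFD, and the 5 genes other than S100A1 and S100A13 in HFD, HSD and HFSD against ND, in the averages for sucrose and for fat, and in the interaction of fat and sucrose. Without adjustment, 4 had a p under 0.05 in HFSD against HFD (S100A1, S100A13, S100A6 and S100A4), as had 15.1% of all genes tested. In the average for sucrose 2 did (S100A6 and S100A4), as did 18.3% of all genes. In the other comparisons 0 did, where the share of all genes was 4.31% for HFD, 7.2% for HSD and 8.07% for HFSD against ND, 3.2% in the average for fat and 3.74% in the interaction. The share of all genes tested that passed was 0.00819% for HFD, 0.0574% for HSD and 0.0164% for HFSD against ND, and 0.344% in the average for sucrose, 0.00819% in that for fat and 0.00819% in the interaction. Both HFSD retinas were below both HFD retinas for 6 of the 7 genes, all but S100A10, against 24.7% of the genes tested. In that comparison the intervals of 4 of the 5 other genes, all but S100A10, include falls of more than 2-fold, so the test does not show that their levels were alike.

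**Figure D4:**
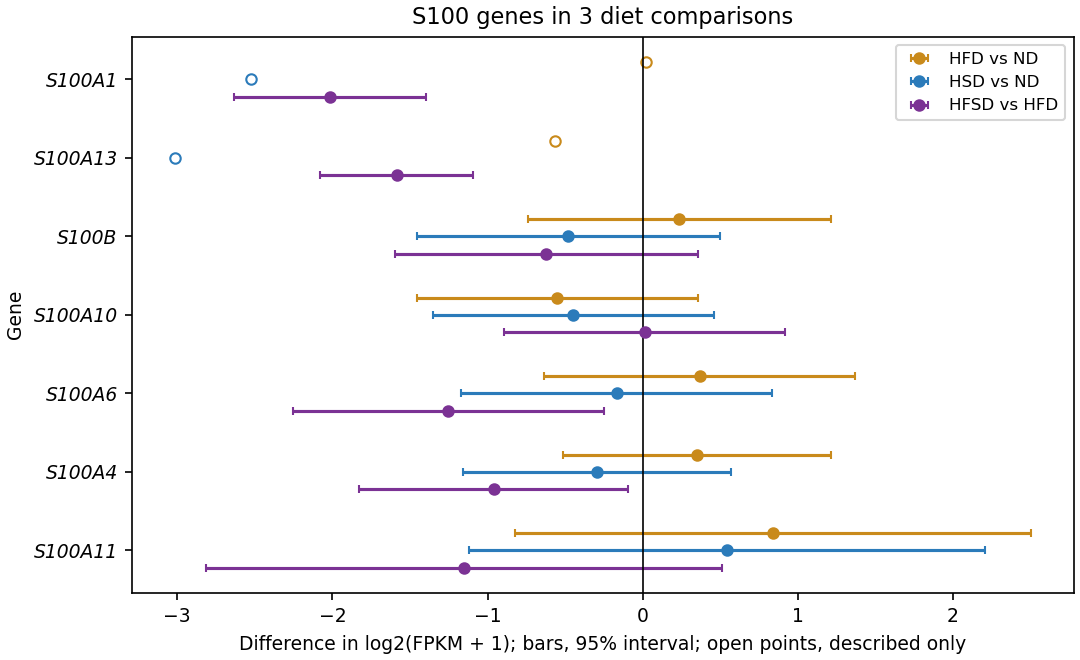
Difference in log2(FPKM + 1) for the 7 S100 genes in HFD minus ND, HSD minus ND and HFSD minus HFD, as the mean of 2 against 2 retinas, with the 95% interval from limma (bars) where a test was made; open points are values given as a description only. S100A1 and S100A13 lie at -2.52 and -3.01 in HSD minus ND and at -2.01 and -1.59 in HFSD minus HFD, and the intervals of S100B, S100A10 and S100A11 include 0 in each comparison shown.

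A fold rule with no test was also applied, in which the group mean plus 1 is divided by the ND mean plus 1 and a gene passes above 1.54 or below 0.65. In HFD 1 of the 7 genes passed, S100A11 on the upper side, where 0.949% of the 19293 protein-coding genes passed. In HSD S100A1 and S100A13 passed on the lower side, as did 2.42% of protein-coding genes, and S100A11 passed on the upper side, as did 1.53%. In HFSD 4 genes passed on the lower side, S100A1, S100A13, S100A6 and S100A4, where 2.4% of protein-coding genes passed. The choice of S100A1 and S100A13 fixed their pass in HSD, and HFSD shares the ND retinas, so nothing is read from these passes. S100A11 did not pass in HFD without HFD replicate 1 or ND replicate 2, nor in HSD without HSD replicate 2, the library with muscle RNA, or ND replicate 2. In HFSD, S100A6 did not pass without ND replicate 1, and S100A4 did not pass without ND replicate 2 or HFSD replicate 2. The count in HFD was 5 without ND replicate 1 and 4 without HFD replicate 2, and the count in HSD was 5 without ND replicate 1.

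The 5 S100 genes under 1 FPKM included both subunits of calprotectin. S100A9 was below 1 FPKM in every library, at 0.456 and 0.201 FPKM on ND, 0.982 and 0.293 on HFD, 0.339 and 0.207 on HSD, and 0 in both HFSD retinas, from 26 fragments in all. S100A8 had 8 fragments in all, with 4 libraries at 0. Neutrophil and monocyte markers (6 of 10 listed were in the table) summed to between 0.279 and 1.40 FPKM, and MPO was at 0 in every library. S100A3 had 3 fragments in 2 libraries, S100A14 had 1 fragment and S100A5 had none, and differences in these genes were not detectable at this depth.

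The receptors and binding partners of S100 proteins did not pass in any comparison. Of 38 listed genes, 31 were in the table and 28 were tested, and 0 were called by limma in either direction in any of the 7 comparisons, while between 0 and 6 had an unadjusted p under 0.05. The 6 of 28 were in the average for sucrose, where 18.3% of all genes tested had such a p. The median log2 difference of the 28 was 0.06 in the average for sucrose, against -0.01 over all genes tested. AGER, the receptor known as RAGE, was at 2.05 and 2.35 FPKM on ND, 1.39 and 3.51 on HFD, 3.03 and 4.20 on HSD, and 2.74 and 2.89 on HFSD. Its retinas overlapped between the diets with and without sucrose, since the HFD retinas spanned those of the other diets but HSD replicate 2, and its average log2 difference for sucrose was 0.37 (adjusted p = 0.383 in limma).

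FGF1, a cargo of S100A13, was at a mean of 18.5±5.55 FPKM on ND, 19.2±2.69 on HFD, 16.8±0.481 on HSD and 22.5±1.87 on HFSD (n=2), with an average log2 difference for sucrose of 0.06 (adjusted p = 0.850 in limma). IL1A, the other cargo, was at 0 in 6 libraries. CACYBP, the partner of S100A6, was at 110±6.65 FPKM in ND and 119±9.63 in HFSD, and its retinas overlapped between diets. ANXA2, the partner of S100A10, was at 7.31±5.10 FPKM on ND, 6.23±2.67 on HFD, 7.38±0.549 on HSD and 8.46±2.63 on HFSD. ANXA1, the partner of S100A11, was at 1.87 and 0.213 FPKM on ND, 1.02 and 0.414 on HFD, 0.0959 and 0.453 on HSD, and 0 and 0.240 on HFSD, and its retinas overlapped between diets with and without sucrose.

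ANXA5, an annexin that binds phosphatidylserine, was the tested partner that passed the fold rule with its groups apart, on the lower side in HSD and HFSD, as did 2.62% and 2.59% of all genes tested. It was at 20.8 and 15.1 FPKM on ND, 21.6 and 15.8 on HFD, 8.91 and 6.69 on HSD, and 6.75 and 9.85 on HFSD, so that all sucrose retinas were below the others, as for 6.48% of the genes tested. Its average log2 difference for sucrose was -1.09 (adjusted p = 0.0629 in limma). RYR1, the calcium release channel of skeletal muscle and a partner of S100A1, was below the filter, and it reached 2.40 FPKM in HSD replicate 2, the library with muscle RNA, against 0.470 to 0.616 FPKM in the others.

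EF-hand proteins outside the S100 family were set beside them. Of 41 listed genes, 28 were in the table and 27 were tested, and 0 were called by limma in any of the 7 comparisons, with between 1 and 5 at an unadjusted p under 0.05. The 5 of 27 were in HFSD against HFD and in the average for sucrose, where 15.1% and 18.3% of all genes tested had such a p. In the average for sucrose 13 of the 27 had positive and 14 negative log2 differences, with a median of -0.01. In HFD against ND 23 were positive and 4 negative, with a median of 0.10 against 0.01 over all genes tested, and in the average for fat 19 were positive and 8 negative, with a median of 0.09. By the fold rule with groups apart, 1 was past the lower limit in HSD, as were 2.62% of all genes tested, and 1 was past the upper limit in HSD and HFSD, as were 1.3% and 1.24%. PVALB, the calcium buffer parvalbumin, was at 79.1±14.8 FPKM on ND and 50.9±2.51 on HSD (n=2), and SCGN, the calcium sensor secretagogin, was at 38.5±16.1 FPKM on ND, 71.1±14.3 on HSD and 71.6±10.3 on HFSD. Their average log2 differences for sucrose were -0.52 and 0.95, with adjusted p of 0.116 and 0.133 in limma.

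Summed markers of Müller glia, of the pigment epithelium and of microglia were apart between the diets with and without sucrose, and those of the pigment epithelium and microglia overlapped once the highest marker was left out. The Müller glia markers (12 of 12 in the table) summed to between 3637 and 4884 FPKM without sucrose and to between 2697 and 2846 FPKM with it, and the mean sum was 1.51 times higher without sucrose. Without GLUL the Müller sums were 2148 to 2757 FPKM and 1872 to 2092 FPKM. GLUL, the glutamine synthetase of Müller cells, was at 1489 to 2127 FPKM without sucrose and 722 to 890 FPKM with it (average log2 difference -1.07, adjusted p = 0.0501 in limma), while SLC1A3, their glutamate transporter, was at 180 to 203 FPKM and 185 to 191 FPKM. No marker on this list was at 0. The microglia markers (9 of 9 in the table) summed to between 14.7 and 26.2 FPKM without sucrose and to between 10.6 and 14.4 FPKM with it, and no marker was at 0. Without C1QC they summed to 10.6 to 19.96 FPKM and 8.56 to 12.45 FPKM. The sums of rod, endothelium, fibroblast, neutrophil and surface epithelium markers overlapped between the diets with and without sucrose.

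The astrocyte markers, 6 genes counted without S100B, summed to 586 and 36.9 FPKM on ND, 242 and 228 on HFD, 9.03 and 10.9 on HSD, and 14.0 and 85.4 on HFSD. Myelin and oligodendrocyte markers (9 of 10 in the table) summed to 722 and 96.5 FPKM on ND, 476 and 348 on HFD, 61.1 and 45.8 on HSD, and 62.2 and 158 on HFSD. Both sums overlapped between diets with and without sucrose, since ND replicate 2 lay below HFSD replicate 2. ND replicate 2 was low in both of these lists and had the highest S100A1 and S100A13 of all libraries, and also the highest Müller glia sum. The Müller glia sums were 3637 and 4884 FPKM on ND, 4280 and 3985 on HFD, 2846 and 2755 on HSD, and 2697 and 2812 on HFSD. Without sucrose their order over the retinas was that of S100A1, and with sucrose it was not. Pigment epithelium markers (12 of 12) summed to 459 to 471 FPKM on ND, 238 to 268 on HFD, 130 to 204 on HSD and 114 to 173 on HFSD. Without RGR, a retinal opsin of these cells and of Müller glia, the sums were 246 to 335 FPKM on ND, 50.2 to 91.1 on HFD, 40.4 to 52.3 on HSD and 28.9 to 73.8 on HFSD, so that HFD overlapped with the sucrose diets and lay below ND. In HFD against ND 9 of the 11 tested markers of this list had negative log2 differences, with a median of -1.81. Without GFAP, the highest astrocyte marker, the astrocyte sums were apart, at 24.8 to 61.6 FPKM without sucrose and 6.66 to 15.8 FPKM with it. GJA1, the gap junction protein connexin 43, was the gene of the marker lists that passed in limma (average log2 difference for sucrose -2.80, adjusted p = 0.0311). The part of these cell types in the levels of the S100 genes was not tested.

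**Figure D5:**
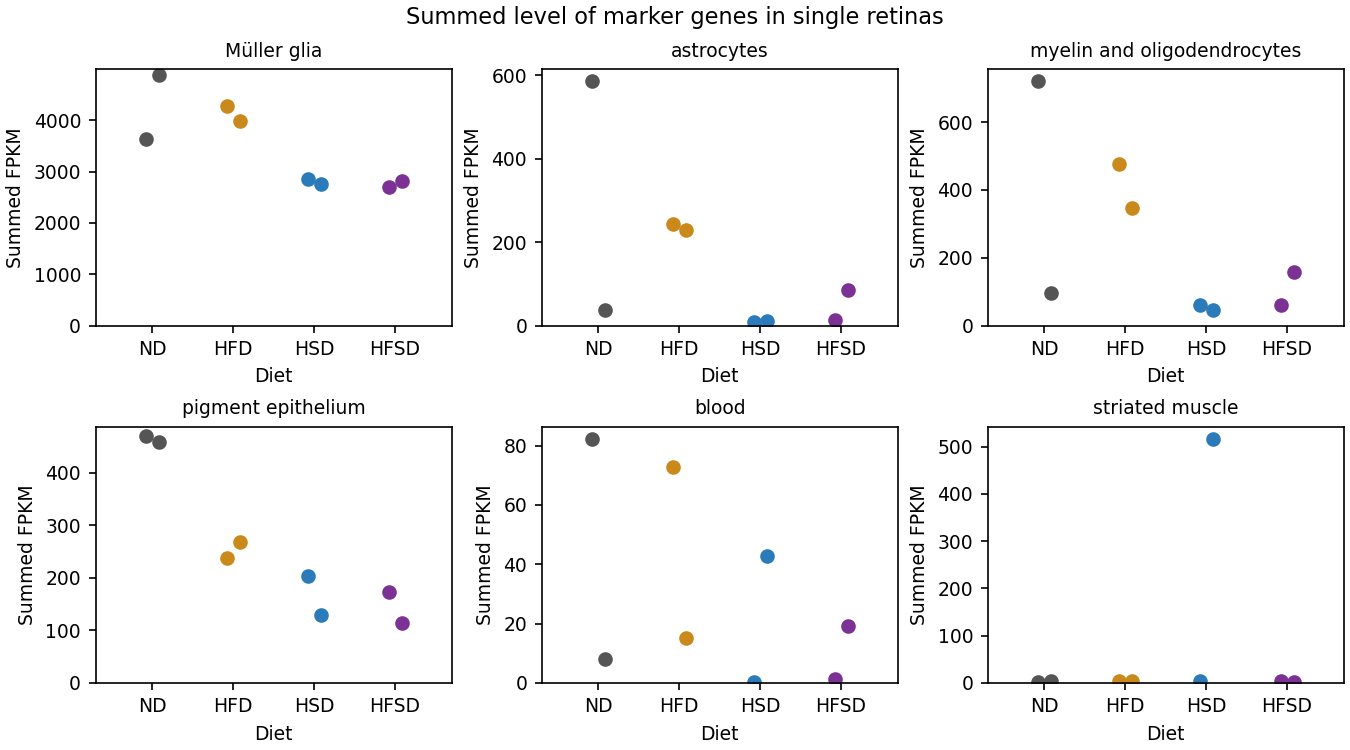
Summed FPKM of marker genes of 6 cell types or tissues (S100B left out of the astrocytes), on linear axes from 0 that differ between panels, in each of 2 retinas per diet (points). Müller glia sums lie at 2697 to 2846 FPKM in the sucrose diets and 3637 to 4884 FPKM in the others, astrocyte and myelin sums are low in ND replicate 2 as well, and striated muscle is high in HSD replicate 2 only (517 FPKM).

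Genes whose levels were most like S100A1 over the 8 libraries were named by Pearson's r of log2(FPKM + 1), given as a description, since retinas of a diet share that diet and the cell type markers above vary between the same libraries. For S100A1 they were SLC22A16, PXYLP1, ABHD4, EFNB2 and SLC3A2, with r from 0.97 to 0.98, and S100A13 ranked 8 of all genes tested with r of 0.97. PXYLP1, a phosphatase of glycosaminoglycan synthesis, was at 140 and 240 FPKM on ND, 196 and 214 on HFD, 38.1 and 43.0 on HSD, and 39.4 and 43.9 on HFSD. EFNB2, the ligand ephrin-B2, averaged 18.2 FPKM on ND, 20.7 on HFD, 2.69 on HSD and 5.01 on HFSD. ABHD4 had the same high r with a far smaller range, from 44.9 to 62.1 FPKM, so the measure ranks shape and not size.

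For S100A13 the most like included AVPI1, CHPF2, S100A1 and ABHD4, with r from 0.95 to 0.98. CHPF2, an enzyme of chondroitin chain synthesis, averaged 16.9 FPKM on ND, 15.05 on HFD, 11.5 on HSD and 13.3 on HFSD, the same order of diets as for S100A13. The least like were KCNAB1 for both genes, at r of -0.99 and -0.97, with TMLHE and ZMYND10 for S100A1 and ZMYND10 and LRTM2 for S100A13. KCNAB1, a beta subunit of potassium channels, averaged 23.2 FPKM on ND, 23.3 on HFD, 31.7 on HSD and 29.2 on HFSD. The other S100 genes had r to S100A1 of 0.68 (S100A4), 0.56 (S100B), 0.45 (S100A6), 0.28 (S100A10) and 0.11 (S100A11).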

How the data were processed

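RNA of 8 retinas (2 each of ND, HFD, HSD and HFSD) was sequenced from TruSeq libraries on a HiSeq instrument. The authors checked reads with FastQC, trimmed them, aligned them to a rabbit genome (TopHat2), dropped reads with several positions, and deposited FPKM values per gene and library, computed with their own script. The table is named for counts but holds FPKM, so a count model that had been planned was not used. No value column was without a sample (0 columns).

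Whole fragments and depths were recovered from the steps between FPKM values, with 100% of values whole within a relative tolerance of 1e-08. Tests used limma (version 3.58.1, R 4.3.3) on log2(FPKM + 1) in 1 model of 4 groups, with a variance trend, over the 12204 protein-coding genes at 1 FPKM or more in 2 or more libraries, and Benjamini-Hochberg adjustment over all of them. The step was tested on simulated data. The S100 genes and all lists were chosen with earlier results of these data known. Named are all S100 genes, AGER, FGF1, ANXA1, ANXA2 and CACYBP, genes of any list that passed in limma, partners and EF-hand genes past the fold rule with groups apart (marker lists are given as sums), the 5 most and 3 least correlated genes (1 of them is not reported here) and the genome neighbours. Some other genes (IL1A, SLC1A3, GLUL, RGR, C1QC, GFAP, MPO, S100P) are named after their values were seen. S100 genes were matched by symbol to a RefSeq table of mOryCun1.1, 11 of 12, all but S100A4. Alternatives were a pseudocount of 0.1, no filter, a filter of 5 FPKM, all gene types, no variance trend, only the groups compared, median-of-ratios scaling, a replicate block, voom on recovered fragments, and each retina left out.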

Additional observations from a re-analysis of the deposited data

Results flagged for a closer look

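S100A13 differed in the direction of the fat effect. On standard chow, both HFD retinas were below both ND retinas, with a log2(FPKM + 1) difference of -0.56. On the sucrose diets, both HFSD retinas were above both HSD retinas, with a difference of 0.86, which was 1.06 without HSD replicate 2, the library with muscle RNA. All retinas were apart in both comparisons and the directions were opposite, as for 4.92% of the genes tested. The difference between the effects was not tested, because S100A13 was picked on retinas that it includes.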

How the results depend on the processing

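Over 7 comparisons, the count of S100 genes called by limma was 0 under the main settings and under all alternatives run except in HFSD against HFD. There it was 1 (S100A1) with only the groups compared in the fit, and from 0 to 1 when single retinas were left out. By the fold rule, leaving out 1 retina gave counts from 1 to 5 in HFD, from 3 to 5 in HSD and from 4 to 5 in HFSD, and a pseudocount of 0.1 gave 5 in HFSD. Leaving out 1 retina reversed the direction of S100A10 in HFSD against HFD (from -0.14 to 0.16), of S100A10 in the average for sucrose (from -0.52 to 0.08) and of S100A11 in that average (from -0.79 to 0.18) and of S100B in HSD against ND (from -0.995 to 0.035), and none of these had been called. The difference of S100A1 in HFD against ND, a description with no call, ran from -0.38 to 0.42 and was negative without ND replicate 1 or HFD replicate 1. The cause was not tested. The log2 difference of S100A13 in HSD against ND was -3.32 with a pseudocount of 0.1 and -3.32 with voom. Summed markers without the highest marker of each list were added after seeing the data: the pigment epithelium and microglia then overlapped between diets with and without sucrose, and the astrocytes and the neutrophils no longer did. Scaling factors between libraries ran from 0.997 to 1.013.

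The labels do not say that the same replicate number pairs retinas of different diets. The correlation of the deviations of same-numbered retinas over all genes tested ran from -0.165 to 0.081, which cannot show that a shared batch is absent. With the replicate number as a block, the counts of S100 genes called stayed at 0, and in HFSD against HFD the adjusted p was 0.111 for S100A1 and 0.127 for S100A13 in limma. With 2 retinas per diet, 1 retina can decide a mean. S100A6, S100A4 and S100A11 rest on as few as 4, 9 and 2 fragments, which limits what can be seen in them.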

Other observations

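S100-named genes outside the rule were also read. S100PBP, which encodes a binding protein of S100P, was between 5.91 and 6.82 FPKM in every retina. S100P was at 0.532 and 0.588 FPKM in ND, 0 in both HFD retinas, 0.661 and 0.201 in HSD, and 0.610 and 0.660 in HFSD, all below the filter. S100Z and S100G, the intestinal calcium buffer calbindin-D9k, were each above 0 in a single retina.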
